A study of Schizosaccharomyces pombe with 15 samples.

Results

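The response of fission yeast, Schizosaccharomyces pombe, to a short heat shock was read from 6 of the 15 libraries of a start-site survey. All 6 came from one wild-type (wt) strain, h-S 972. The 3 control libraries, called YES here after their rich yeast-extract medium, were made from parallel liquid cultures grown at 30 °C with no stress. For the 3 heat libraries such cultures were moved to 39 °C for 15 min before harvest, and one label names their medium YES and another YEL. The libraries were chosen by their labels alone. The p-values measure the spread between replicate cultures, estimated over all 15 libraries, and the 6 compared here are cultures of a single strain. The other libraries in that estimate came from cultures given H2O2, grown in EMM minimal medium or starved of nitrogen. The libraries were made by CAGE (cap analysis of gene expression). In this method the capped 5′ ends of RNA are sequenced, so that a tag marks a transcription start site (TSS). Values are counts per 1e6 tags (CPM) after scaling each library by edgeR's TMM factor, and a gene or start site is called where its Benjamini-Hochberg adjusted p in edgeR's quasi-likelihood test is under 0.05. A value after ± is the standard error (SE) of a log2 change or, where said, the standard deviation (SD) over 3 libraries. Genes given by group means were called unless said otherwise, and the groups of genes given by library did not overlap unless said otherwise. Places are those of the gene's main start-site cluster in the deposited files, on assembly ASM294v2.

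Fission yeast answers heat through a pair of systems. The heat shock factor Hsf1 binds heat shock elements (HSEs), inverted repeats of the unit GAA, and drives chaperone genes. The mitogen-activated protein kinase Sty1 acts on the transcription factors Atf1 and Pcr1, which bind the cyclic AMP response element (CRE, core TGACGT) and drive a set of genes shared by many stresses. In the same minutes yeasts turn down genes for making ribosomes.

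The tags of genes summed to 9665353, 11344265 and 18851713 in the YES libraries and to 11607432, 16338911 and 17824486 after heat, so that 3 counts correspond to 0.159 to 0.310 CPM. The first principal component of the 6 libraries held 81.8% of the variance and separated heat from YES, and the second, 6.91%, set YES library 3 and heat library 2 apart from their groups. Of 13 marker genes of mating type and meiosis, the 5 of the h− type (mfm1, mfm2, mfm3, mam1 and mam2) had means of 0.0297 to 19.6 CPM in YES and 0.172 to 18.6 after heat, and the 2 of the h+ type (map2 and map3) 1.899 to 7.37 and 0.511 to 6.44, so that these genes did not tell the mating type. The 6 of meiosis and spores lay between 1.36 and 48.9 CPM in YES and between 2.97 and 46.4 after heat; rec8 and spo5 were called higher and mei2, map2 and mfm2 lower, and their part in the results was not tested.

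After heat, 2487 of 5886 genes (42.3%) were called, 1304 higher (22.2% of all genes) and 1183 lower (20.1%), and the groups did not overlap for 2409 of them. The rises were larger than the falls. At least 8-fold changes were called for 150 genes that rose and for 6 that fell, and at least 2-fold changes for 669 and 375. Coding genes were called higher about as often as lower, 1012 and 1038 of 4881, while among 881 long noncoding RNAs 262 were higher and 137 lower. The directions are relative to TMM scaling, under which the median log2 change of all genes was −0.03. Scaling by library totals alone moved this median to −0.21 and the split to 988 higher and 1707 lower. Under that scaling the median turned from positive to negative in the lists of endoplasmic reticulum folding, stress kinases and regulators, glycolysis, DNA damage and mitochondrial ribosomal proteins. Counts of list members are to be read against the shares of 22.2% higher and 20.1% lower.

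**Figure D1:**
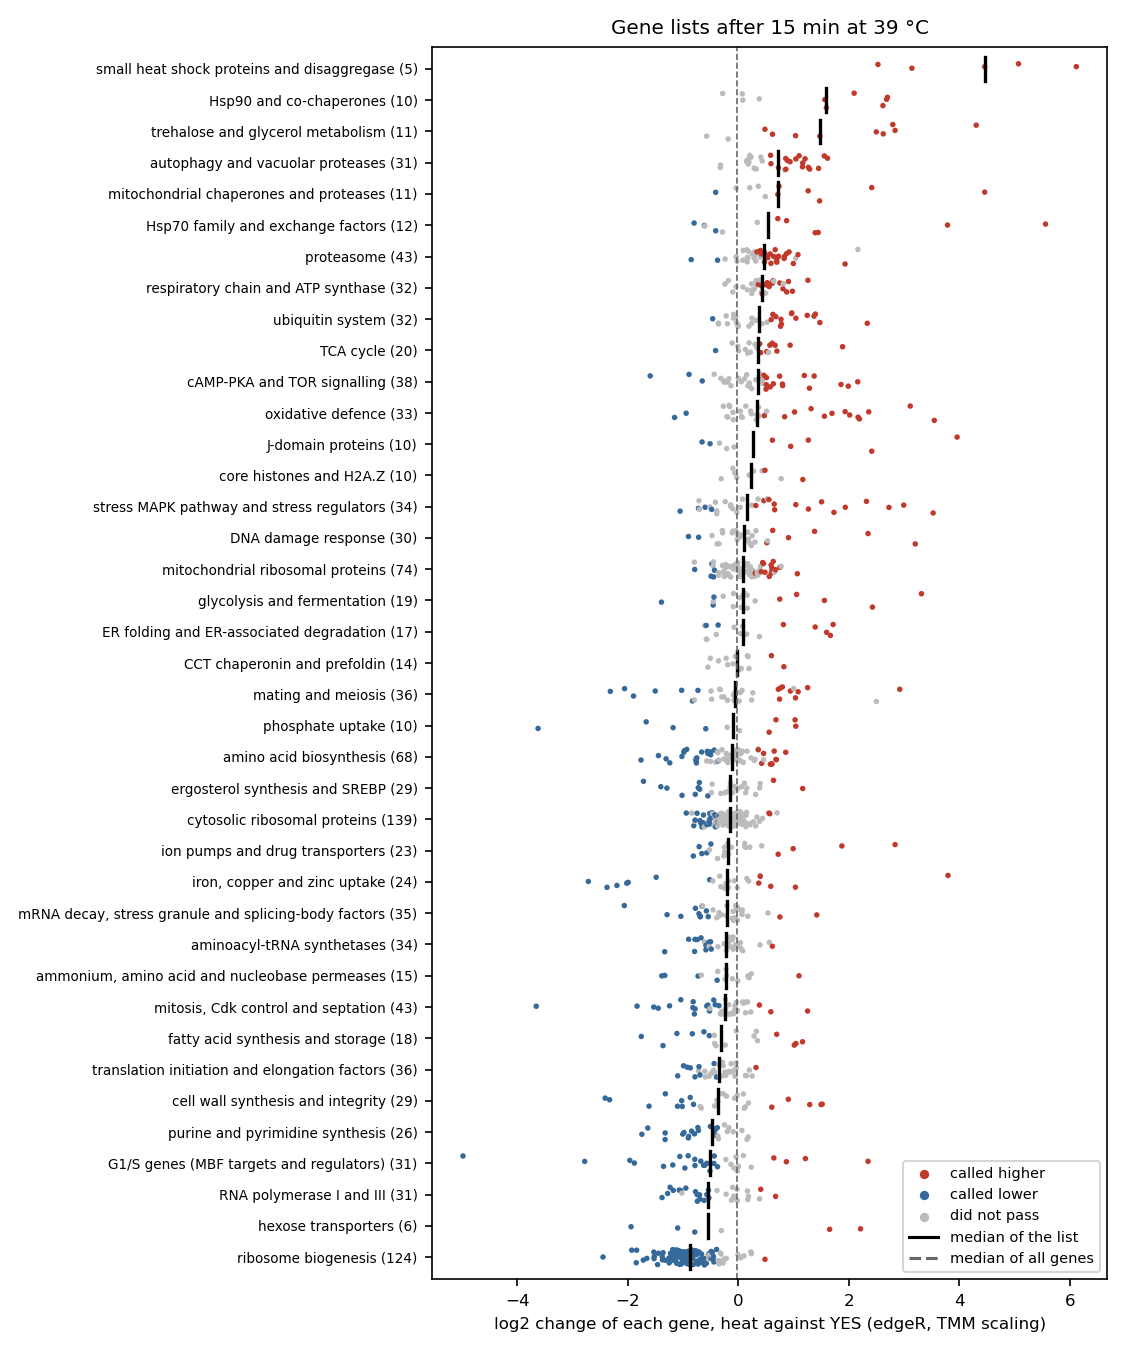
Each point is a gene of one of 39 lists (number of genes in parentheses), placed by its log2 change of heat against YES on a linear axis, with genes called higher in red, called lower in blue and the others grey. The black bar is the list's median, from 4.46 for small heat shock proteins and disaggregase to −0.87 for ribosome biogenesis, and the dashed line is the median of all genes, −0.03.

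Small heat shock proteins, which hold unfolding proteins, and the Hsp100 disaggregases, which pull aggregates apart, had the highest median of the 39 lists. All 5 genes of this list were called higher, with a median log2 change of 4.46, and their share of all gene tags went from 0.0524% ± 0.00568 to 1.45% ± 0.0714 (SD, n = 3). hsp16 (SPBC3E7.02c, chromosome II, 2660903–2661227, minus strand) encodes a small heat shock protein and had 87.3, 59.6 and 66.7 CPM in the YES libraries and 4308, 5940.4 and 4589 CPM after heat, a log2 change of 6.12 ± 0.22 (SE, adjusted p 4.35e-11). The cytosolic disaggregase hsp104 (chromosome II, 3612889–3615335, minus strand) had 384, 279 and 237 CPM in the YES libraries and 9752, 7794 and 12719 CPM after heat, a log2 change of 5.07 ± 0.27 (SE, adjusted p 1.07e-09). Its mitochondrial counterpart hsp78 (chromosome II, 2725494–2725752, minus strand) had 42.2, 35.9 and 41.2 CPM in the YES libraries and 813, 924 and 889 CPM after heat, a log2 change of 4.46 ± 0.14 (SE, adjusted p 1.70e-11). The YES and heat libraries were far apart for each of these genes. hsp20 was also higher in all heat libraries, with a log2 change of 2.53 ± 0.12 (SE, adjusted p 6.17e-10). hsp9, a small stress protein of the plasma membrane, had 92.3, 64.1 and 85.1 CPM in the YES libraries and 339, 1408 and 383 CPM after heat, and its log2 change of 3.14 ± 0.72 (SE, adjusted p 0.00266) was 2.17 without heat replicate 2, the library with the highest value.

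**Figure D2:**
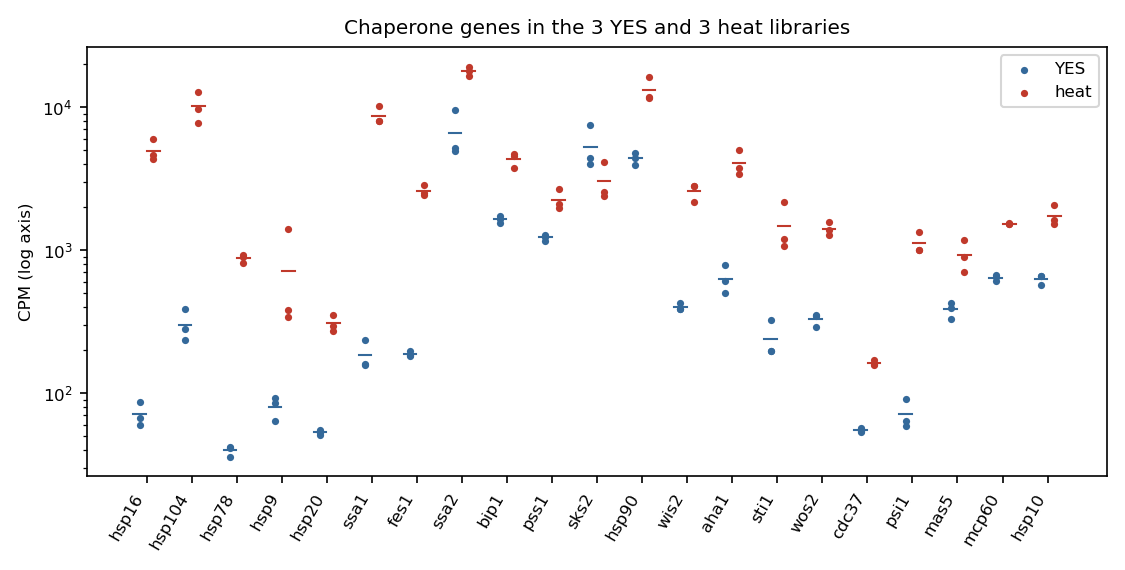
CPM on a log axis of 21 chaperone genes in the 3 YES libraries (blue) and the 3 heat libraries (red), with a bar at each group mean. The highest point after heat is ssa2, with a mean of 17835 CPM, and sks2 is the only one of the 21 genes with overlapping groups.

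Among the Hsp70 chaperones and their exchange factors, 6 of 12 were called higher and 3 lower, with a median log2 change of 0.53. The 2 cytosolic Hsp70 genes started from different levels. ssa1 (chromosome I, 2296437–2298034, minus strand) had 236, 159.8 and 158 CPM in the YES libraries and 8031, 7974 and 10097 CPM after heat, a log2 change of 5.56 ± 0.26 (SE, adjusted p 4.87e-10). ssa2 (chromosome III, 2056938–2058562, plus strand) was already abundant, with 5152, 4895 and 9603 CPM in the YES libraries and 16522, 19199.7 and 17784 CPM after heat, a log2 change of 1.45 ± 0.31 (SE, adjusted p 0.00156). The less abundant gene had a mean of 8701 CPM after heat, above the YES mean of the abundant one, 6549.9 CPM. fes1, which encodes a nucleotide exchange factor that makes Hsp70 release its substrate, had 186, 181 and 196 CPM in the YES libraries and 2497, 2421 and 2857 CPM after heat, a log2 change of 3.79 ± 0.14 (SE, adjusted p 4.35e-11). The Hsp110-type gene pss1 went from 1226 to 2245 CPM (log2 change 0.87 ± 0.14). The endoplasmic reticulum member bip1 went from 1643 to 4309 CPM (log2 change 1.39 ± 0.14), and the mitochondrial member ssc1 from 2107 to 3457 CPM (log2 change 0.71 ± 0.14). Members that sit on the ribosome were called lower, and the list's count of 3 lower genes was 1 without YES replicate 1 or heat replicate 1 or 2. sks2, the ribosome-associated Hsp70, had 7458, 4386 and 3982 CPM in the YES libraries and 2567, 2395 and 4116 CPM after heat, with overlapping groups, and its log2 change of −0.80 ± 0.26 (SE, adjusted p 0.0236) was −0.47 with an adjusted p of 0.164 without YES replicate 1. ssz1, the Hsp70 of the ribosome-associated complex, had a log2 change of −0.62 ± 0.16 (SE, adjusted p 0.00552). zuo1, the J-domain partner of ssz1 in that complex, had one of −0.66 ± 0.15 (SE, adjusted p 0.00272). mge1, the exchange factor of the mitochondrial Hsp70, fell by 0.41 on the log2 scale (adjusted p 0.0261), which did not pass without YES replicate 1 or 2 or heat replicate 1 or 2 (adjusted p 0.0539 to 0.133).

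J-domain proteins bring substrates to Hsp70, and 5 of 10 were called higher and 2 lower, with a median log2 change of 0.27; the 2 lower were 1 without YES replicate 1 or 3 or heat replicate 1 or 2. psi1 had 63.7, 58.9 and 91.6 CPM in the YES libraries and 1002, 1346 and 995 CPM after heat, a log2 change of 3.96 ± 0.30 (SE, adjusted p 5.68e-08). mas5 went from 384 to 925 CPM (log2 change 1.27 ± 0.18). Hsp90 matures kinases and other clients with the help of co-chaperones, and of this list 6 of 10 were called higher and 0 lower, with a median log2 change of 1.58. hsp90 (chromosome I, 3888957–3891360, minus strand) had 3948, 4746 and 4428 CPM in the YES libraries and 16133, 11801 and 11634 CPM after heat, a log2 change of 1.59 ± 0.25 (SE, adjusted p 1.13e-04). The called co-chaperones other than cdc37 had larger log2 changes than hsp90. The cyclophilin gene wis2 (chromosome I, 4930600–4931250, minus strand) had 386, 385 and 427 CPM in the YES libraries and 2162, 2792 and 2820.0 CPM after heat, a log2 change of 2.70 ± 0.14 (SE, adjusted p 9.73e-10). aha1, which activates the ATPase of Hsp90, had a log2 change of 2.68 ± 0.20 (SE, adjusted p 4.32e-08), sti1, which hands clients from Hsp70 to Hsp90, one of 2.62 ± 0.43 (SE, adjusted p 1.46e-04), and the p23 gene wos2 one of 2.10 ± 0.31 (SE, adjusted p 6.98e-05). The kinase-specific cdc37 went from 54.9 to 162 CPM (log2 change 1.57 ± 0.13). The 4 members that did not pass were cns1, git7, rvb1 and rvb2, with log2 changes of 0.07, 0.38, −0.28 and 0.08.

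Chaperones of other compartments and the cytosolic chaperonin followed in 3 lists. In mitochondria, 6 of 11 were called higher and 1 lower, with a median log2 change of 0.71, with the chaperonin pair mcp60 (638 to 1531 CPM, log2 change 1.26 ± 0.12) and hsp10 (628 to 1741 CPM, log2 change 1.47 ± 0.17) among the rises. In the endoplasmic reticulum, 5 of 17 were called higher and 2 lower, with a median log2 change of 0.08 (−0.10 under library totals alone), and 1 was lower without any 1 library other than YES replicate 2. The oxidase gene ero11 went from 33.4 to 110.0 CPM (log2 change 1.71 ± 0.15). The cytosolic chaperonin CCT and prefoldin, which fold actin and tubulin, had 2 of 14 members called higher and 0 lower (1 lower without YES replicate 3 and 2 under library totals alone), and their median was −0.02. Counted together, the 44 genes of the heat shock protein, Hsp70, J-domain, Hsp90 and mitochondrial chaperone lists took 2.65%, 2.58% and 3.12% of the gene tags in the YES libraries and 7.74%, 7.85% and 7.504% after heat.

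The promoters of chaperone genes are shown for the HSEs in them. The 4 sequences run 5′ to 3′ from 150 bases before the start site to the start site itself, the last letter, read from the RefSeq assembly ASM294v3 at the peak of the authors' cluster. Capitals mark GAANNTTC or TTCNNGAA, a pair of inverted GAA units, on either strand, and a run of 13 capitals is 3 units in a row.
hsp16 (chrII:2660992-2661142, minus strand): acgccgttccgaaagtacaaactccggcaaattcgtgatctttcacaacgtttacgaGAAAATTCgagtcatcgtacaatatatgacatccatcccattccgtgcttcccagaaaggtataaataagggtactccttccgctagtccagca
ssa1 (chrI:2297964-2298114, minus strand): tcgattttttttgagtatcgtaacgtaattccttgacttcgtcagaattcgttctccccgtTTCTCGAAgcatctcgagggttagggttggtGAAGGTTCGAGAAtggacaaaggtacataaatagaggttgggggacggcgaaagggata
wis2 (chrI:4931163-4931313, minus strand): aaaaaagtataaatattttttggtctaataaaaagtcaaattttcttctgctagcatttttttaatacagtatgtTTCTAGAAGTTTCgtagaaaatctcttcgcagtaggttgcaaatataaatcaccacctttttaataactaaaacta
hsp90 (chrI:3891139-3891289, minus strand): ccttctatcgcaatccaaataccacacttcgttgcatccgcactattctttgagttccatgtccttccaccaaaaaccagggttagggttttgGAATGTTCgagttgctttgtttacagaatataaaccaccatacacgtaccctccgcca
The marked pairs nearest the start site begin 93, 53, 70 and 57 bases before it in hsp16, ssa1, wis2 and hsp90. These letters are common in short windows, and hsp104, hsp78 and fes1, which also rose, hold no such pair in the 250 bases searched.

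Over the 250 bases before the main start site of all 4415 coding genes with a start site at the annotated mRNA 5′ end, a run of 3 HSE units (GAANNTTCNNGAA on either strand, which contains both kinds of pair) lay in 17 of 4415 (0.385%). It lay in 3 of 112 (2.68%) of the promoters called higher by at least 4-fold. A pair of either kind lay in 719 of 4415 (16.3%) of all these promoters and in 30 of 112 (26.8%) of those risers. In the Hsp70 list a pair was in 6 of 12 (50%) and in the Hsp90 list in 5 of 10 (50%). The CRE core TGACGT was searched on either strand. It lay in 33 of 112 (29.5%) of them, in 120 of 876 (13.7%) of all promoters called higher, in 104 of 2587 (4.02%) of those that did not pass, in 26 of 952 (2.73%) of those called lower and in 250 of 4415 (5.66%) of all. These are counts of letters in windows and not of bound sites, and promoters that share a sequence are not independent.

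Genes of the Sty1 pathway and its targets rose in part. Of the list of stress kinases and regulators 14 of 34 were called higher and 4 lower, with a median log2 change of 0.16 (−0.02 under library totals alone, with 10 lower). The kinase sty1 itself did not pass, with 214, 203 and 223 CPM in the YES libraries and 234, 232 and 291 CPM after heat (log2 change 0.24, adjusted p 0.157). Its factor atf1 had 146, 151 and 100.4 CPM in the YES libraries and 367, 256 and 335 CPM after heat, a log2 change of 1.27 ± 0.24 (SE, adjusted p 5.37e-04), and the partner pcr1 one of 1.73 ± 0.45 (SE, adjusted p 0.00554). hsf1, the heat shock factor, had 50.7, 59.99 and 56.1 CPM in the YES libraries and 90.99, 87.4 and 84.7 CPM after heat, a log2 change of 0.66 ± 0.12 (SE, adjusted p 3.80e-04). srk1 (chromosome III, 1301876–1302047, plus strand), a kinase that Sty1 activates, had 103, 100.3 and 127 CPM in the YES libraries and 531, 682 and 439 CPM after heat, a log2 change of 2.32 ± 0.32 (SE, adjusted p 3.69e-05). The transcription factor gene rsv2 went from 111 to 882 CPM (log2 change 2.99 ± 0.22) and the RNA-binding protein gene vip1 from 3662 to 14010.3 CPM (log2 change 1.94 ± 0.15). The phosphatase genes that act on Sty1 differed: pyp1 did not pass (0.35, adjusted p 0.464), and pyp2 rose by 2.73 ± 0.35 (SE, adjusted p 1.68e-05), at a start site upstream of its annotated mRNA that is described with the start sites. cmk2, another kinase of the pathway, did not pass (0.07, adjusted p 0.802). atf21 had 82 tags in the heat libraries together and 7 in YES, a ratio of 11.8 with a 95% exact counting interval of 5.46 to 30.2.

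Promoters of a pair of genes that rose are shown for the CRE core. They cover 150 bases and the start site as the last letter, and capitals mark TGACGT or its reverse complement ACGTCA.
srk1 (chrIII:1301787-1301937, plus strand): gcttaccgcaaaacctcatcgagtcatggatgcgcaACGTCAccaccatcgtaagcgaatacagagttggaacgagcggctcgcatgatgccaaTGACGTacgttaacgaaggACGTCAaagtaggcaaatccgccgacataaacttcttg
smp4 (chrIII:955080-955230, plus strand): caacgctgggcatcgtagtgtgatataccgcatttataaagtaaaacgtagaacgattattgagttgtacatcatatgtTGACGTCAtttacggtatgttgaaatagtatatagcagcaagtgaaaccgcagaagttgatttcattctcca
smp4 had 181, 119 and 163 CPM in the YES libraries and 5275, 6700.0 and 6819 CPM after heat, a log2 change of 5.34 ± 0.31 (SE, adjusted p 3.42e-09), and holds overlapping copies on both strands.

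Trehalose and glycerol protect proteins and balance water, and of the genes for making and breaking them down 9 of 11 were called higher and 0 lower, with a median log2 change of 1.47. tps1, trehalose-6-phosphate synthase, had 57.1, 56.2 and 46.4 CPM in the YES libraries and 363, 372 and 373 CPM after heat, a log2 change of 2.80 ± 0.14 (SE, adjusted p 9.04e-10). The neutral trehalase ntp1, which breaks trehalose down, rose in the same libraries from 63.02 to 449.9 CPM (log2 change 2.84 ± 0.15). gpd1, the dehydrogenase that leads to glycerol, had 2338, 2130.2 and 1668 CPM in the YES libraries and 13684, 8302 and 12645 CPM after heat, a log2 change of 2.50 ± 0.22 (SE, adjusted p 3.16e-07). gld1, glycerol dehydrogenase, went from 6.08 to 122 CPM (log2 change 4.31 ± 0.21), and by tags at its mRNA 5′ end alone its log2 change was 6.61.

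Antioxidant genes rose in part, with 13 of 33 called higher, 2 lower and a median of 0.33; 0 or 1 was lower without any 1 library other than YES replicate 3, and 4 under library totals alone. The catalase ctt1 had 51.2, 45.9 and 52.8 CPM in the YES libraries and 669, 545 and 541 CPM after heat, a log2 change of 3.55 ± 0.14 (SE, adjusted p 8.49e-11), and the glutathione peroxidase gpx1 one of 3.11 ± 0.18 (SE, adjusted p 3.45e-09). The peroxiredoxin genes pmp20 and tpx1 went from 139 to 714 CPM (log2 change 2.36 ± 0.19) and from 2206 to 8918 CPM (log2 change 2.01 ± 0.14).

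In the lists of routes that remove damaged proteins, called genes were mostly higher. Of the proteasome, 23 of 43 were called higher and 2 lower, with a median log2 change of 0.47, with the ATPase subunits rpt5 and rpt6 going from 246 to 491 CPM (log2 change 1.00 ± 0.17) and 327 to 617 CPM (log2 change 0.92 ± 0.12). In the ubiquitin system 14 of 32 were called higher and 1 lower, with a median log2 change of 0.38, while its share of gene tags, 1.52% ± 0.168 in YES and 1.43% ± 0.0482 after heat (SD, n = 3), overlapped between the groups. The segregase cdc48 went from 422 to 1002 CPM (log2 change 1.25 ± 0.19), its cofactor ufd1 from 29.8 to 78.6 CPM (log2 change 1.39 ± 0.12) and the deubiquitylase otu1 from 72.8 to 367 CPM (log2 change 2.33 ± 0.28). san1, a ligase for misfolded nuclear proteins, went from 39.1 to 109 CPM (log2 change 1.48 ± 0.27). For autophagy and vacuolar proteases 17 of 31 were called higher and 0 lower, with a median log2 change of 0.73. The kinase subunit atg13 went from 38.5 to 93.98 CPM (log2 change 1.29 ± 0.17), the conjugating enzyme atg3 from 20.7 to 49.7 CPM (log2 change 1.27 ± 0.19) and the protease psp3 from 9.94 to 29.2 CPM (log2 change 1.56 ± 0.16).

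Among mitochondrial energy genes the higher calls outnumbered the lower. In the TCA cycle 9 of 20 were called higher and 1 lower, with a median log2 change of 0.36 (6 higher under library totals alone), with malate dehydrogenase mdh1 (309.8 to 1145 CPM, log2 change 1.89 ± 0.12) and citrate synthase cit1 (256 to 489 CPM, log2 change 0.94 ± 0.18) among the rises. For the nuclear genes of the respiratory chain and ATP synthase 15 of 32 were called higher and 0 lower, with a median log2 change of 0.43; the count of 15 was 9 without YES replicate 3 and 10 under library totals alone. qcr8, of complex III, went from 80.5 to 159 CPM (log2 change 0.98 ± 0.14). Glycolysis and fermentation was mixed, with 5 of 19 higher and 3 lower, and held 14.9% ± 0.379 of gene tags in YES and 13.7% ± 0.249 after heat. A pair of less abundant paralogues were among the rises. eno102, an enolase, went from 43.7 to 434 CPM (log2 change 3.31 ± 0.21), and gpd3, a glyceraldehyde-3-phosphate dehydrogenase, from 203 to 1092 CPM (log2 change 2.43 ± 0.16). Of 6 hexose transporter genes 2 were higher and 3 lower (1 by tags at mRNA 5′ ends). ght8 fell (123 to 32.1 CPM, log2 change −1.94 ± 0.19) and ght2 rose (75.7 to 238 CPM, log2 change 1.65 ± 0.23). In the cAMP and TOR signalling list 16 of 38 were called higher and 3 lower, with a median log2 change of 0.35, including both subunits of protein kinase A, the catalytic pka1 (23.7 to 107 CPM, log2 change 2.16 ± 0.40) and the regulatory cgs1 (36.4 to 145 CPM, log2 change 1.99 ± 0.14). The main start site of pka1 is not at an annotated mRNA 5′ end.

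The list with the lowest median was the making of ribosomes. Of 124 ribosome biogenesis genes, 105 were called lower and 1 higher, with a median log2 change of −0.87, and their share of gene tags went from 1.24% ± 0.0342 to 0.579% ± 0.0201 (SD, n = 3). The helicase gene dbp3 (chromosome II, 3338658–3338992, plus strand) had 133, 108 and 71.2 CPM in the YES libraries and 18.7, 16.01 and 22.2 CPM after heat, a log2 change of −2.45 ± 0.29 (SE, adjusted p 5.79e-06). efg1, another factor of rRNA processing, had 81.5, 115 and 102 CPM in the YES libraries and 30.7, 22.3 and 25.3 CPM after heat, a log2 change of −1.93 ± 0.23 (SE, adjusted p 7.36e-06). nop52, noc4 and dbp2 had log2 changes of −1.85, −1.84 and −1.72. RNA polymerases I and III, which make ribosomal and transfer RNA, had 16 of 31 genes lower and 2 higher. nuc1, the largest subunit of polymerase I, went from 247 to 109 CPM (log2 change −1.18 ± 0.13) and rpa2, the second largest, from 410.2 to 195 CPM (log2 change −1.07 ± 0.17).

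The ribosomal proteins themselves moved less. Of 139 cytosolic ribosomal protein genes 23 were called lower and 2 higher, and their median was −0.15. The count of 23 was 8 to 11 without YES replicate 1 or 2 or heat replicate 1, 41 under library totals alone and 10, beside 7 higher, by tags at mRNA 5′ ends. Their summed share of gene tags was lower in every heat library, 27.7%, 26.7% and 24.6% in YES against 19.96%, 20.5% and 20.5%. That share is of each library's total, without TMM scaling, and what lowered it was not tested. Translation factors had 9 of 36 lower (19 under library totals alone) and 1 higher. tef3, elongation factor 3, went from 9432 to 4967 CPM (log2 change −0.93 ± 0.22). sum3, a helicase of translation initiation from the list of RNA-binding factors, went from 3416 to 816 CPM (log2 change −2.07 ± 0.29). Of the aminoacyl-tRNA synthetases 12 of 34 were lower and 1 higher, and of mitochondrial ribosomal proteins 5 of 74 were lower and 14 higher (8 higher without YES replicate 2 or 3, and 3 higher and 13 lower under library totals alone).

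Biosynthetic genes fell in part. In purine and pyrimidine synthesis 0 of 26 were called higher and 17 lower, with a median log2 change of −0.48. CTP synthase, cts1, went from 119.9 to 35.6 CPM (log2 change −1.75 ± 0.32) and ade1, of purine synthesis, from 389 to 155 CPM (log2 change −1.33 ± 0.14). In amino acid synthesis 10 of 68 were called higher and 18 lower, with a median log2 change of −0.12; the 10 higher were 4 under library totals alone. Methionine synthase, met26, went from 4127 to 1514 CPM (log2 change −1.45 ± 0.20) and glutamine synthetase, gln1, from 60.9 to 17.9 CPM (log2 change −1.76 ± 0.17). Ergosterol synthesis had 9 of 29 lower and 2 higher, with erg25 going from 851 to 259 CPM (log2 change −1.72 ± 0.23) and erg11 from 696 to 284 CPM (log2 change −1.29 ± 0.16). In fatty acid synthesis and storage 6 of 18 were lower and 4 higher. The elongase elo2 fell (821 to 243 CPM, log2 change −1.76 ± 0.16), while dga1, which makes storage fat, rose (61.9 to 138 CPM, log2 change 1.16 ± 0.15).

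Several genes of phosphate and metal uptake fell. The phosphate transporter pho84 (chromosome II, 4443688–4444826, plus strand) had 709.6, 905 and 1224 CPM in the YES libraries and 75.4, 95.03 and 59.4 CPM after heat, a log2 change of −3.63 ± 0.34 (SE, adjusted p 6.15e-07), and the acid phosphatase gene pho1 one of −1.18 ± 0.24 (SE, adjusted p 0.00107), although of the 10 genes of this list 4 were higher and 4 lower. Among iron, copper and zinc genes 7 of 24 were lower and 5 higher (2 without YES replicate 1 or under library totals alone, and 3 without heat replicate 1). The iron permease fip1 had 52.3, 55.2 and 49.6 CPM in the YES libraries and 7.65, 7.55 and 8.64 CPM after heat, a log2 change of −2.72 ± 0.17 (SE, adjusted p 5.61e-09), and its partner oxidase fio1 went from 177 to 33.98 CPM (log2 change −2.38 ± 0.20). The siderophore transporter str1 went from 62.9 to 15.6 CPM (log2 change −2.02 ± 0.31) and the zinc transporter zrt1 from 152 to 38.2 CPM (log2 change −1.995 ± 0.17). The metallothionein gene zym1, which binds zinc, moved the other way, from 42.7 to 592 CPM (log2 change 3.796 ± 0.24).

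Among genes of the entry into S phase the lower calls outnumbered the higher. Of 31 G1/S genes, most of them targets of the factor MBF, 19 were called lower and 4 higher, with a median of −0.52. By tags at mRNA 5′ ends 14 of 30 were lower. The licensing factor cdt1 had 8.88, 18.7 and 9.299 CPM in the YES libraries and 1.94, 1.26 and 2.16 CPM after heat, a log2 change of −2.78 ± 0.51 (SE, adjusted p 4.34e-04). cdc22, the large subunit of ribonucleotide reductase, had 1147, 1029.8 and 1173 CPM in the YES libraries and 288, 269.5 and 350.0 CPM after heat, a log2 change of −1.88 ± 0.15 (SE, adjusted p 8.13e-08). tos4 went from 51.6 to 13.2 CPM (log2 change −1.97 ± 0.26) and cdc18, the partner of cdt1 in licensing, from 76.8 to 30.1 CPM (log2 change −1.36 ± 0.17). mik1, a kinase that restrains mitosis, had 19, 53 and 68 tags in the YES libraries and 3, 0 and 1 after heat, and its fitted log2 change of −4.99 was −6.39 without heat replicate 1 and −4.36 without heat replicate 2. In bulk cultures fewer cells in a stage and less RNA per cell cannot be told apart. MBF binds the box ACGCGT, a palindrome, which lay before the main start site of 10 of 29 (34.5%) of these genes and of 110 of 4415 (2.49%) of all coding genes with a start site at the mRNA 5′ end. The promoter of cdc22 is shown for its boxes, in capitals.
cdc22 (chrI:4226820-4226970, plus strand): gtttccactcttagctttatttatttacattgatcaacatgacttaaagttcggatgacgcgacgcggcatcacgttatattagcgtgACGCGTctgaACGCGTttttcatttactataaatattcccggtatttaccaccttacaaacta
The list's largest rise, cds1 at 2.35, came from a start site inside the gene and is described with the start sites.

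Later cell cycle genes fell in part as well, 16 of 43 against 3 higher. eng1, which encodes a glucanase of the septum, went from 141 to 39.5 CPM (log2 change −1.84 ± 0.19), and cdc15, of the cytokinetic ring, from 43.8 to 16.1 CPM (log2 change −1.45 ± 0.18). In the cell wall list 9 of 29 were lower and 5 higher (14 lower under library totals alone). By tags at mRNA 5′ ends 7 of 25 were lower and 2 higher. The glucan-remodelling gas1 went from 307 to 57.8 CPM (log2 change −2.41 ± 0.20), and its paralogue gas2 from 420.2 to 1186 CPM (log2 change 1.496 ± 0.15). The main start site of gas2 lies in an annotated noncoding gene or pseudogene and not at an mRNA 5′ end. The core histones had 2 of 10 higher (1 without YES replicate 1 or 2 or heat replicate 2) and 0 lower. The DNA damage list had 6 of 30 higher and 2 lower (5 and 5 under library totals alone), with the glycosylase gene mag2 going from 2.26 to 21.5 CPM (log2 change 3.20 ± 0.27).

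In the lists not yet described, called genes were fewer or went both ways. Among ammonium, amino acid and nucleobase permeases 1 of 15 rose and 4 fell (1 lower without YES replicate 2 and 2 without heat replicate 1 or 3), and the ammonium transporter amt1 went from 52.5 to 20.9 CPM (log2 change −1.33 ± 0.17). Ion pumps and drug transporters had 4 of 23 higher and 5 lower (3 without heat replicate 2 and 2 without heat replicate 3). Of RNA decay and splicing factors 2 of 35 were higher and 10 lower (18 under library totals alone), with upf1 and upf3, of nonsense-mediated decay, going from 46.5 to 19.02 CPM (log2 change −1.29 ± 0.20) and from 105 to 279.7 CPM (log2 change 1.42 ± 0.13). Mating and meiosis had 9 of 36 higher and 7 lower (4 lower by tags at mRNA 5′ ends, and 8 against 9 when scaled by library totals). The meiotic regulator mei2 had 31.96, 30.7 and 32.1 CPM in the YES libraries and 4.07, 10.9 and 7.45 CPM after heat, a log2 change of −2.06 ± 0.28 (SE, adjusted p 2.30e-05).

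Among the largest changes of all coding genes, several lie outside the chaperone lists. SPBC24C6.09c, annotated as a phosphoketolase, had 8.999, 7.298 and 6.49 CPM in the YES libraries and 599, 388 and 358 CPM after heat, a log2 change of 5.90 ± 0.34 (SE, adjusted p 2.78e-09). lsd90 had 13.96, 9.79 and 12.05 CPM in the YES libraries and 736, 496 and 573 CPM after heat, a log2 change of 5.66 ± 0.24 (SE, adjusted p 1.76e-10). ddr48 went from 116 to 5079.6 CPM (log2 change 5.46 ± 0.25), and SPAC2F3.05c, annotated as a xylose and arabinose reductase, from 5.33 to 198 CPM (log2 change 5.24 ± 0.19). SPAC23H3.11c, annotated as a glucosidase, and the uncharacterized SPBC1105.13c went from 0.514 to 19.6 CPM (log2 change 5.19 ± 0.26) and from 3.47 to 113 CPM (log2 change 5.01 ± 0.25), and their main start sites lie in a coding exon. That of lsd90 lies in an annotated noncoding gene or pseudogene, and that of SPBC24C6.09c is also not at an annotated mRNA 5′ end. Falls among the 10 largest that are not in the lists included SPAC8E11.10, annotated as a sorbose reductase (675 to 104 CPM, log2 change −2.70 ± 0.30), the transporter gene SPBC887.17 (45.4 to 7.68 CPM, log2 change −2.56 ± 0.18) and pxl1, of the cytokinetic ring (30.9 to 6.11 CPM, log2 change −2.35 ± 0.27).

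Among genes with a mean of at least 10 CPM in a group, noncoding RNAs had the largest fitted rises, from almost no tags in YES. SPNCRNA.1475 had 1, 1 and 1 tags in the YES libraries and 183, 242 and 275 after heat, a ratio of 234 with a 95% exact counting interval of 79.9 to 1139 that covers counting error only. For SPNCRNA.757, with 5 tags in YES and 1012 after heat, the ratio was 203 (86.8 to 627). For SPNCRNA.574, with 6 tags and 556, the ratio was 93.1 (42.5 to 255). Without YES replicate 3 the fitted log2 changes of SPNCRNA.757 and SPNCRNA.574 moved from 7.58 to 8.78 and from 6.37 to 5.47, and that of SPNCRNA.574 was 7.55 without YES replicate 1. SPNCRNA.665 had 0.577, 0.356 and 0.987 CPM in the YES libraries and 52.9, 74.5 and 59.9 CPM after heat, a log2 change of 6.48 ± 0.32 (SE, adjusted p 6.17e-10) that was 7.08 without YES replicate 3. The falls were smaller. SPNCRNA.1134 and SPNCRNA.780 had log2 changes of −1.93 ± 0.16 (SE, adjusted p 1.48e-07) and −1.85 ± 0.26 (SE, adjusted p 3.26e-05), SPNCRNA.1096 and SPNCRNA.613 of −1.83 ± 0.38 (SE, adjusted p 0.00116) and −1.55 ± 0.16 (SE, adjusted p 1.77e-06).

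Start sites were compared next, over the 13003 clusters of tags that the authors list. After heat 4372 clusters (33.6%) were called, 2365 higher (18.2%) and 2007 lower (15.4%). Library totals alone gave 1930 higher and 2864 lower. The balance of rises and falls varied with where a cluster lies, and this was not tested. At annotated mRNA 5′ ends, taken as a peak within 100 bp, 831 of 4649 were higher and 996 lower. Inside coding exons 450 of 2632 (17.1%) were higher and 212 (8.05%) lower. Clusters antisense to a coding gene had 163 of 885 higher and 79 lower, and those in noncoding genes or pseudogenes 524 of 2520 higher and 332 lower. Rises of at least 4-fold that reached 1 CPM after heat numbered 205 of 2632 in coding exons, 131 of 4649 at mRNA 5′ ends and 249 of 2520 in noncoding genes or pseudogenes. They numbered 85 of 885 among antisense clusters, 27 of 288 in 3′ UTRs, 24 of 381 in 5′ UTRs, 8 of 123 in introns and 100 of 1525 elsewhere. The clusters in coding exons hold few tags: 1.07% ± 0.0593 of a library in YES and 1.34% ± 0.0609 after heat (SD, n = 3), higher in all 3 heat libraries.

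**Figure D3:**
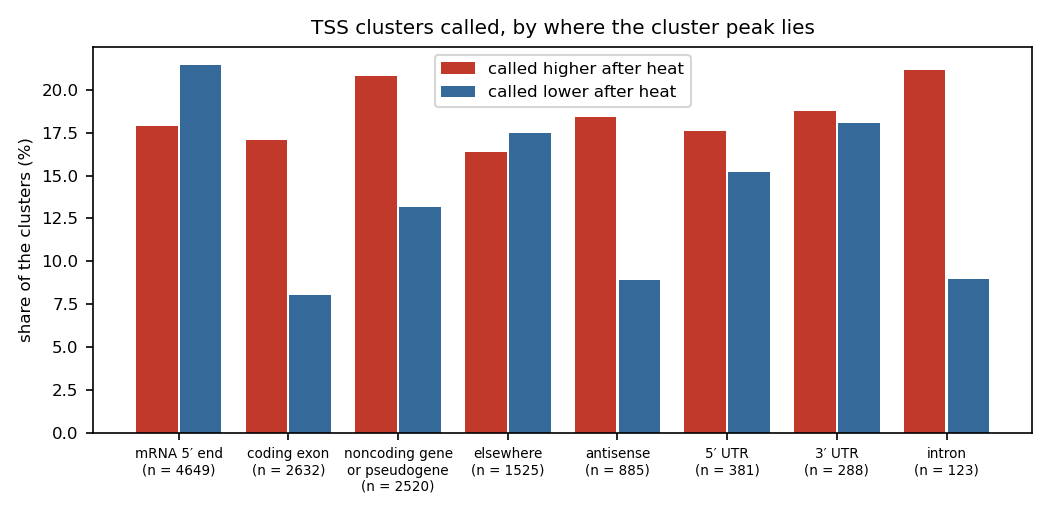
Share of TSS clusters called higher (red) or lower (blue) after heat, in percent from 0, by the place of the cluster's peak in the annotation, with the number of clusters under each pair. Higher calls are more frequent than lower calls in coding exons (17.1% and 8.05%) and antisense clusters, and less frequent at mRNA 5′ ends (17.9% and 21.4%).

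The internal start sites that rose had the initiator step at a higher share than the others. A pyrimidine followed by a purine at the first transcribed base, the usual initiator, lay at 163 of 208 (78.4%) coding-exon clusters called higher by at least 4-fold, at 874 of 1970 (44.4%) that did not pass and at 534 of 1413 (37.8%) that did not pass and reached 1 CPM. At mRNA 5′ ends that did not pass the share was 97.7%. The 3-unit HSE lay in the 250 bases before 11 of 208 (5.29%) of these strong internal risers, before 26 of 2632 (0.988%) of all coding-exon clusters and before 79 of 13003 (0.608%) of all clusters, and in the 11 risers it began a median of 70 bases before the start. The CRE core lay before 15 of 208 (7.21%) of the internal risers and 134 of 2632 (5.09%) of all coding-exon clusters. Of the strong internal risers 189 lay in the coding sequence of the gene they were counted with, at a median of 41.2% of its length from the start codon. The first ATG after the start was in the gene's frame in 54 (28.6%). Over all 2478 coding-exon clusters counted with their gene the median place was 30.7%, and that ATG was in frame in 644 (26.0%).

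Windows before 3 such internal start sites are shown for the elements in them, from 120 bases before the start site to the start site as the last letter. All 3 start sites lie in coding sequence. Capitals mark GAANNTTC or TTCNNGAA in cut3 and orc1, and TGACGT or ACGTCA in cds1.
cut3 (chrII:1003110-1003230, minus strand): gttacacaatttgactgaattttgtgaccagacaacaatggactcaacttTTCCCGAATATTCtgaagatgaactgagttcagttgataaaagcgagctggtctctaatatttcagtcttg
orc1 (chrII:2572363-2572483, plus strand): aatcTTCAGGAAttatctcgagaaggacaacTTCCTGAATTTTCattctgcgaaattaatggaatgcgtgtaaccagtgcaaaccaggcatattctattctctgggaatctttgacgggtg
cds1 (chrIII:740653-740773, minus strand): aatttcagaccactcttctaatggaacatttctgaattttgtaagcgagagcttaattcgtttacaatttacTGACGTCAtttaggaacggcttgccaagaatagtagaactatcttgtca
cut3 encodes a subunit of condensin, and its cluster at chromosome II, 1002904–1003231, minus strand lies 3353 bases into the coding sequence of 3975. It had 2.74, 2.83 and 1.95 CPM in YES and 162, 135 and 191 CPM after heat, a log2 change of 6.05 ± 0.32 (SE, adjusted p 2.13e-10). At the cut3 mRNA 5′ end the values were 51.9, 46.5 and 57.3 CPM in YES and 36.8, 39.6 and 51.7 CPM after heat, and that cluster did not pass (adjusted p 0.213). cds1 encodes the replication checkpoint kinase, and its cluster at chromosome III, 740470–740710, minus strand had 0.684, 0.265 and 0.769 CPM in YES and 61.7, 44.9 and 67.9 CPM after heat, a log2 change of 6.59 ± 0.39 (SE, adjusted p 9.43e-10), against 0.63 ± 0.16 at its mRNA 5′ end. The cluster in orc1, which encodes a subunit of the origin recognition complex, was weak, with 0, 0 and 0.154 CPM in YES and 1.92, 3.26 and 2.12 CPM after heat. Of the cds1 tags 67.7% after heat began at the internal cluster, and of the cut3 tags 78.4%.

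The start sites within a gene were then compared with each other. A change of TSS usage, that is of the share of a gene's tags at each start site, was called in 508 of 1401 genes (36.3%) with at least 2 start sites that each held 10% of the tags in YES or heat (edgeR's diffSpliceDGE, Simes' p adjusted over these genes). In 366 of them the start site most used in YES lost share and in 142 it gained, and in 150 another start site became the most used. The gaining start site lay downstream in 228 and upstream in 138 of the 366, and 128 of the downstream ones were in a coding exon. These directions are a description: a start site entered through either group, and the one followed was chosen as the highest in YES, which favours a loss. The share moved by at least 20 points in 247 genes, downwards in 205.

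In the 8 genes with the smallest p and such a move, the gaining start site held 0.504% to 5.005% of the tags in YES, so it entered the test through the heat libraries, and the loss at the other site is given as a description. In wat1, a WD-repeat protein of the TOR complexes, the share at the mRNA 5′ end went from 98.6% ± 0.306 in YES to 43.98% ± 11.1 after heat (SD, n = 3), and a cluster 243 bases downstream in the coding sequence took up 56.02%. That cluster had 2.28, 2.47 and 2.51 CPM in YES and 115, 162 and 140.2 CPM after heat. In SPAC22A12.14c, a BSD domain protein, the share went from 95.5% ± 1.36 in YES to 15.5% ± 1.34 after heat (SD, n = 3), with the gain 564 bases downstream. In prp2, a subunit of the splicing factor U2AF, it went from 94.7% ± 1.08 in YES to 37.8% ± 4.11 after heat (SD, n = 3), with the gain 942 bases downstream. For pck1, a protein kinase C, it went from 97.8% ± 0.675 in YES to 47.8% ± 4.37 after heat (SD, n = 3), with the gain 1101 bases downstream. The TORC2 subunit gene bit61 and the mitochondrial gene mgr3 kept most tags at the mRNA 5′ end, with shares going from 99.2% ± 0.337 in YES to 60.4% ± 2.004 after heat (SD, n = 3) and from 99.5% ± 0.240 in YES to 70.7% ± 3.17 after heat (SD, n = 3). In each of these 6 genes the gaining cluster lies in the gene's own coding sequence. In mid1, which places the cytokinetic ring, the share went from 90.7% ± 1.47 in YES to 59.96% ± 3.08 after heat (SD, n = 3), and the gain lay 795 bases upstream, in the coding sequence of the neighbouring gene cwf20. The noncoding SPNCRNA.1063 went from 48.4% ± 4.32 in YES to 24.8% ± 2.996 after heat (SD, n = 3). The groups did not overlap for any of the 8.

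**Figure D4:**
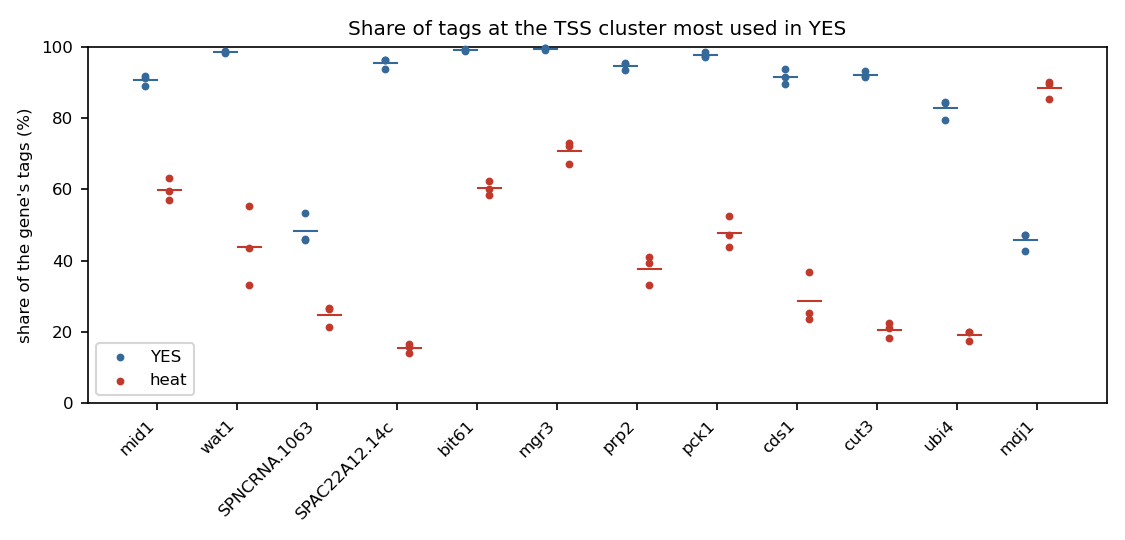
Share of a gene's tags, in percent from 0, at the TSS cluster most used in YES, in the 3 YES (blue) and 3 heat (red) libraries of 12 genes with a called change of usage, with a bar at each mean. In 11 of the genes all heat libraries lie below all YES libraries, and in mdj1 above.

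Among stress genes, start sites moved within ubi4, mdj1 and pyp2, chosen here after their values were seen. ubi4 encodes polyubiquitin. The cluster at its annotated mRNA 5′ end (on chromosome II, 1045519–1045614, minus strand) had 7.87, 11.8 and 7.49 CPM in YES and 72.3, 78.1 and 64.6 CPM after heat, a log2 change of 2.99 ± 0.39 (SE, adjusted p 2.72e-05), while a cluster 953 bases upstream (chromosome II, 1046462–1046779, minus strand) had 42.2, 45.7 and 40.9 CPM in YES and 18.02, 16.4 and 16.2 CPM after heat, one of −1.35 ± 0.15 (SE, adjusted p 7.07e-07). The share of the upstream cluster went from 82.7% ± 2.88 in YES to 19.1% ± 1.53 after heat (SD, n = 3), and the gene's rise of 0.78 on the log2 scale was smaller than that at its mRNA 5′ end. mdj1 encodes the J-domain partner of the mitochondrial Hsp70. Its cluster within the 5′ UTR (chromosome III, 444853–445129, minus strand) had 6.16, 6.89 and 7.23 CPM in YES and 83.1, 72.3 and 52.98 CPM after heat, a log2 change of 3.35 ± 0.26 (SE, adjusted p 1.29e-08), and a weaker one 174 bases upstream, at the annotated end, fell by 1.43 ± 0.26. For pyp2, a cluster 632 bases upstream of the annotated mRNA 5′ end (chromosome I, 5201953–5202078, plus strand) had 0.798, 1.33 and 1.79 CPM in YES and 25.4, 22.6 and 28.2 CPM after heat, a log2 change of 4.19 ± 0.57 (SE, adjusted p 5.62e-05), and the one at the annotated end fell by 1.68 ± 0.35 (adjusted p 9.49e-04).

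**Figure D5:**
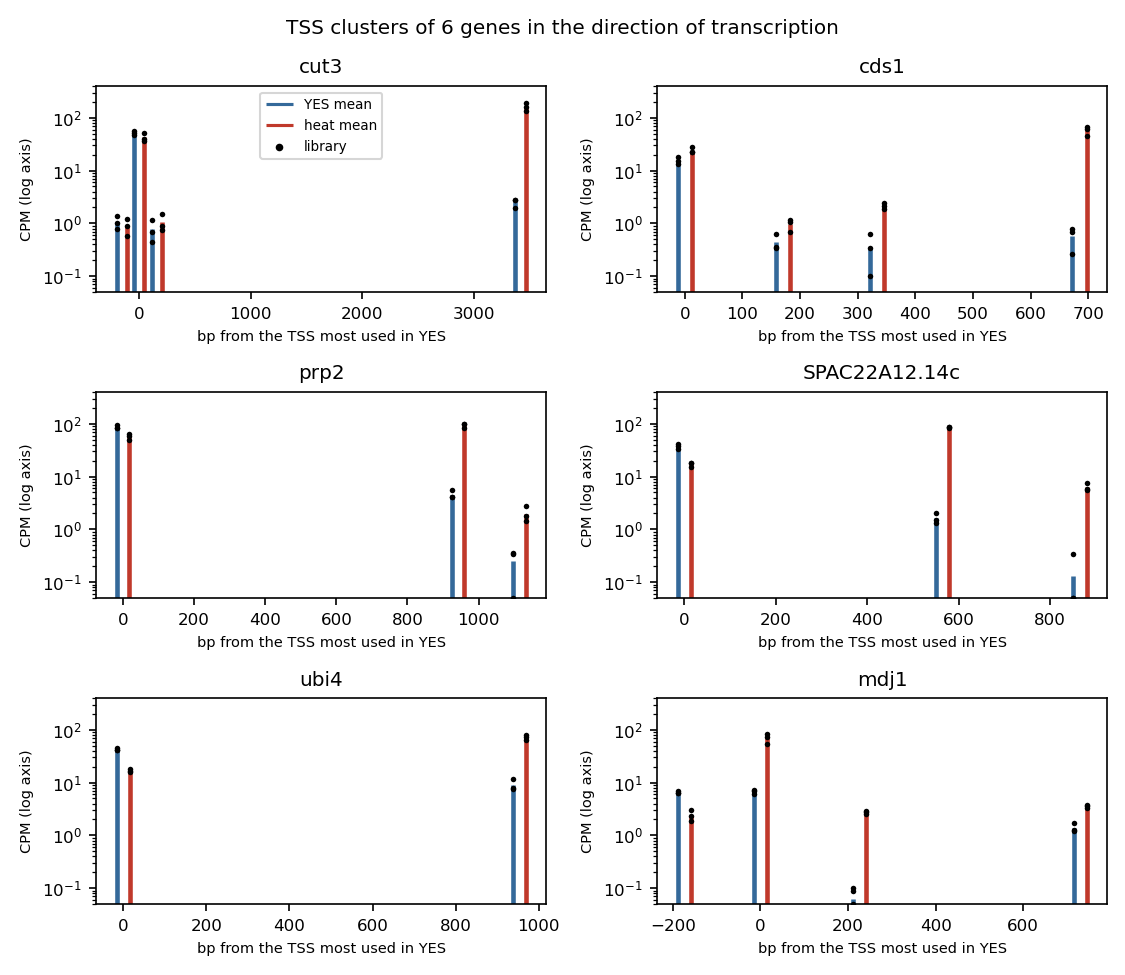
Mean CPM (bars, log axis from 0.05) of each TSS cluster of 6 genes in YES (blue) and heat (red), with the 3 libraries as points, by distance in bp along transcription from the cluster most used in YES; values under 0.05 are drawn at the foot. In cut3 the cluster 3413 bp downstream goes from a mean of 2.504 to 163 CPM while the cluster at 0 goes from 51.9 to 42.7 CPM.

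The clusters with the largest changes, in genes with at least 2 start sites, were of both kinds. In tsp0 a cluster in an intron (II, 1224753–1224864) had 0, 3 and 2 tags in YES and a mean of 33.6 ± 3.38 CPM after heat (SD, n = 3), beside a cluster at the mRNA 5′ end that itself rose by 2.84. Clusters in the coding exons of mug135 and SPAC664.13 had 2 and 4 tags in all YES libraries together, and means of 12.7 ± 1.49 and 23.2 ± 16.1 CPM after heat. Among the largest falls were the mRNA 5′ ends of pho84 (−3.64 ± 0.33) and gln1 (−3.30 ± 0.21) and an internal cluster of med15 (−3.06 ± 0.22). The gln1 gene as a whole fell by less, 1.76, and a cluster in its 5′ UTR had 7.18, 6.98 and 9.74 CPM in YES and 10.2, 11.8 and 11.4 CPM after heat and did not pass (adjusted p 0.0576).

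How far the gene calls rest on internal start sites was measured by counting only tags at annotated mRNA 5′ ends, a choice made after the start sites were seen. Of the 4615 genes with such tags 1847 (40%) were then called, 1026 higher (22.2%) and 821 lower (17.8%). Of the 934 among them called higher by all their tags, 860 were called higher at the mRNA 5′ end too, 58 did not pass and 16 were called lower there. Of those called lower by all their tags, 759 were lower there too, 229 did not pass and 2 were called higher, and of the genes not called, 164 were higher and 46 lower there. Those 16 include pyp2, mdj1, SPAC22A12.14c, prp2 and wat1. By these tags the counts of higher genes were again 5 of the small heat shock proteins and disaggregase, 6 of the Hsp70 and 6 of the Hsp90 list, and 98 of the 121 ribosome biogenesis genes measured there were lower. Other lists moved. Higher were 4 of 10 J-domain, 4 of 11 mitochondrial chaperone and 10 of 33 stress regulator genes, against 5, 6 and 14 by all tags. In oxidative defence 17 of 32 were higher, against 13, and in the respiratory chain 18 of 32, against 15.

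To set heat beside another stress, the heat libraries were set directly against 3 libraries of the same strain given 0.5 mM H2O2 for 15 min at 30 °C, a comparison that shares no control. Of 5886 genes 1629 (27.7%) were called, 923 higher after heat (15.7%) and 706 higher after H2O2 (12%), against 572 and 1240 under library totals alone. In the small heat shock protein and disaggregase list 4 of 5 were higher after heat and 0 after H2O2, and in the Hsp90 list 6 of 10 were higher after heat and 0 after H2O2. hsp16 had 106, 97.6 and 105 CPM after H2O2, 5.59 ± 0.22 below heat on the log2 scale (adjusted p 1.08e-10). For the respiratory chain 13 of 32 were higher after heat and 0 after H2O2. Oxidative defence went the other way: 4 of 33 were higher after heat and 15 after H2O2, and for iron, copper and zinc uptake 2 of 24 were higher after heat and 11 after H2O2. Of 124 ribosome biogenesis genes 14 were higher after heat and 9 after H2O2, with a median difference of 0.11. Against YES this list fell after both stresses. After H2O2 97 genes were called lower and 0 higher, with a median log2 change of −1.0018. Over all 5886 genes H2O2 gave 517 lower and 663 higher calls against YES, fewer than heat gave. After heat 105 were lower and 1 higher, with a median of −0.87. These 2 comparisons share the YES libraries. The internal clusters of wat1, cut3 and prp2 had means of 4.06, 2.12 and 4.98 CPM after H2O2. Their means after heat were 139, 163 and 93.7 CPM. Some other start sites described above lay between YES and heat after H2O2. The internal cds1 cluster had means of 0.573 CPM in YES, 4.55 after H2O2 and 58.2 after heat. The upstream pyp2 cluster had 1.31, 10.95 and 25.4 CPM in the same order. In ubi4 the cluster at the mRNA 5′ end had 9.06, 25.1 and 71.6 CPM, and the upstream one 42.9, 22.2 and 16.9 CPM. The mdj1 cluster that rose after heat was no higher after H2O2 than in YES. Cluster changes of H2O2 against YES were not tested.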

How the data were processed

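CAGE tag counts of 6 libraries (heat and YES, 3 each) and, for 1 comparison, 3 H2O2 libraries were used. The authors deposited whole-number counts per gene and per TSS cluster, the log2 normalized gene values and the clusters with CPM. Base calling with CASAVA 1.6, mapping with Bowtie 0.12.7 and build ASM294v2 come from the submitters' processing notes; other steps are not given in the sources used here. RNA was taken with hot acidic phenol-chloroform, per the labels. The log2 values served only an alternative with limma 3.58.1, and the deposited CPM of clusters only described them.

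All 5886 genes and 13003 clusters were fitted over all 15 libraries with edgeR 4.0.16 in R 4.3.3 (TMM, quasi-likelihood, Benjamini-Hochberg, adjusted p under 0.05), with DESeq2 1.42.0 as an alternative. Clusters were assigned to 5885 genes as those whose counts sum to the gene's count in every library. Usage was tested with diffSpliceDGE on start sites with at least 10% of a gene's tags. The scripts were tested on simulated counts. Tag totals of 9665353 to 18851713 make 3 counts 0.159 to 0.310 CPM, and intervals cover counting error only. Names, sequences and gene models came from RefSeq ASM294v3: 5837 of 5886 identifiers matched, and cluster peaks fell on a pyrimidine-purine step in 85.1% at the listed position against 2.8 to 20.2% when shifted by 1 or 2 bases, so the coordinates were used as they stand. mfm1 and mfm3 share their first 27 bases with a near copy and are uncertain.

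Named were the 10 coding genes with the largest rise and fall and the 4 noncoding ones, called, with no overlap and at least 10 CPM; up to 5 members per list with the largest change; all members of the heat shock protein, Hsp70 and Hsp90 lists; and the 8 usage changes with the smallest p that moved by at least 20 points. The list members tpx1, rpt6, cdc18 and zrt1 are given as further examples outside this rule. The members and lists were chosen with earlier results of these data known. The other libraries were not analysed here beyond the fit, and 1 gene that the rule names is not reported here.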

Additional observations from a re-analysis of the deposited data

Results flagged for a closer look

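Among the genes described in the results or named by the same rule, 3 were called in opposite directions against YES by heat and by H2O2, and the direct comparison of heat with H2O2 passed for each of them. The ammonium transporter gene amt1 had 48.5, 45.7 and 63.2 CPM in the YES libraries and 20.8, 19.2 and 22.6 CPM after heat, with 91.6, 101 and 87.3 CPM after H2O2, and the difference of heat from H2O2 was −2.16 ± 0.17 on the log2 scale (SE, adjusted p 1.70e-07). caf5, annotated as a spermine family transporter of the plasma membrane, had 7.96, 7.74 and 6.86 CPM in the YES libraries and 4.94, 4.27 and 3.62 CPM after heat, with 655, 558 and 682 CPM after H2O2, a difference of −7.21 ± 0.15 on the log2 scale (SE, adjusted p 9.73e-14). mfs1, a transporter of the major facilitator family, went the other way, with 44.2, 44.1 and 50.3 CPM in the YES libraries and 67.1, 80.3 and 81.1 CPM after heat and 27.3, 27.4 and 25.3 CPM after H2O2, a difference of 1.52 ± 0.12 on the log2 scale (SE, adjusted p 2.15e-07). For amt1 and caf5 the 3 heat libraries lay below and the 3 H2O2 libraries above all YES libraries, and for mfs1 the reverse.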

How the results depend on the processing

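Genes called numbered 2129 to 2209 when any 1 heat or YES library was left out, TSS clusters 3631 to 3920, genes with changed usage 444 to 488 and, with H2O2 libraries left out too, genes differing between heat and H2O2 1203 to 1474. A test against a minimum 2-fold change in edgeR (glmTreat) called 494 genes, 403 of them higher, 1214 clusters, 991 higher, and 309 genes between heat and H2O2, 232 higher after heat. With no filter on the share of a start site, usage changed in 815 of 3185 genes. The counts under DESeq2, relative log expression factors, limma on the deposited values and stricter filters were within 1.5 times of these results. By tags at mRNA 5′ ends alone, chosen after seeing the data, 5 genes named by the rule or as markers changed sign: pyp2 (−1.58), isp3 (1.83), fus1 (−0.26), mdj1 (−1.33) and yme1 (−0.022). By all their tags pyp2, mdj1 and yme1 were called higher, with log2 changes of 2.73, 2.41 and 0.74. Of the genes named for their start sites, wat1 (−0.56), prp2 (−0.48), SPAC22A12.14c (−1.06), mug135 (−0.47) and med15 (0.71) were called in the other direction there. Same-numbered heat and YES libraries did not deviate together (r −0.12, −0.20 and −0.16), and the numbers were not taken as pairs. Some differently numbered libraries did: heat 1 with YES 2 (r 0.35), heat 2 with YES 3 (0.31) and heat 3 with YES 1 (0.26). The remaining combinations had negative r. Whether the libraries that deviated together share a culture or batch was not tested. With a block on the replicate numbers, 2181 genes, 3863 clusters and 520 usage changes were called. Depth limits genes under 0.310 CPM.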

Other observations

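The promoters of ssa1, ssa2 and hsp90 each hold the run GGGTTAGGG (either strand, 250 bases before the main start site), a motif searched for after the sequences had been seen. It lay in 23 of 4415 (0.521%) of coding promoters at mRNA 5′ ends, in 8 of 876 (0.913%) of those called higher, 2 of 952 (0.210%) of those called lower and 13 of 2587 (0.503%) of those that did not pass. In the Hsp70 list it lay in 2 of 12 (16.7%), in the Hsp90 list in 1 of 10 (10%), in none of the 5 small heat shock protein and disaggregase genes, and in all 9 promoters of the core histone list searched, a list with 2 of 10 genes called higher and 0 lower. ssa1 with the run rose by 5.56 and hsp104 and hsp16 without it by 5.07 and 6.12 on the log2 scale. The other 2 chaperone genes with the run, ssa2 and hsp90, rose by less than these genes. Whether the run bears on the rises was not tested.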
